A study of Mus musculus with 32 samples.

Results

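The change between late middle age and old age was examined in spinal cholinergic neurons of male mice, by comparing 24-month-old with 18-month-old animals. The comparison rests on 10 of the 32 libraries of the study, 5 of each age, taken by the age and sex in their labels. Both groups were Chat-Cre;RiboTag mice from spinal cord, untreated as far as the labels say, and among the labelled traits they differed in age alone. The number series in the names of their count columns also mostly differed between the ages. What these series stand for is not given, so their part cannot be told apart from that of age. In these mice Cre under the Chat promoter adds a hemagglutinin (HA) tag to ribosomal protein L22, so that an antibody to HA pulls down ribosomes, with the mRNA on them, from cholinergic cells. The tag is carried by every Chat-expressing cell and not by motor neurons alone, and the mice were kept on a mixed genetic background. The labels do not say that each library came from a separate animal, though the paper counts each animal as an n outside its soma size and electron microscopy work. The p-values measure the spread between libraries. This spread was estimated over 31 libraries of 7 groups by age and sex, females included, and not from the 10 alone. In a bulk pulldown, fewer cells of a type and less RNA per cell cannot be told apart.

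Motor neurons whose axons are cut switch on a program of axon regeneration, in which the transcription factors ATF3 and JUN are among the earliest members and growth-associated proteins, cytoskeletal proteins and neuropeptides follow. Aging in many tissues also brings interferon and antigen presentation genes, genes of senescence such as Cdkn2a, and changes in chaperones and in the matrix around cells. Neurofilaments are the main intermediate filaments of large motor axons and are among the most abundant products of these cells.

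No gene passed an adjusted p of 0.05 between 18 and 24 months in edgeR's quasi-likelihood test over 17481 genes, which is 0% of those tested. The smallest adjusted p was 0.200, for Flnc and Tagln2. An unadjusted p under 0.05 was reached by 571 genes (3.27%), of which 327 were higher at 24 months (1.87%) and 244 lower (1.4%). That share is below the 0.05 that the threshold allows among genes without any change. The 5 libraries of 24 months lay wholly above the 5 of 18 months for 69 genes (0.395%) and wholly below for 51 genes (0.292%), or 0.686% of genes in either direction. With 5 libraries against 5, such separation also arises among unchanged genes, at shares about as large as these. A lack of overlap is therefore given below as a description of values and not as a sign of change. DESeq2's Wald test called 5 genes, 0.0286% of those it tested, and all 5 were higher at 24 months: Tagln2, Flnc, Gpnmb, En1 and Gata2. limma voom with sample quality weights called 1 gene, Flnc (0.00572%). Levels are given below as normalized counts, which are counts scaled with TMM factors to 1 common library size, and log2 fold changes (log2 differences) are 24 minus 18 months with the standard error of the edgeR fit.

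**Figure D1:**
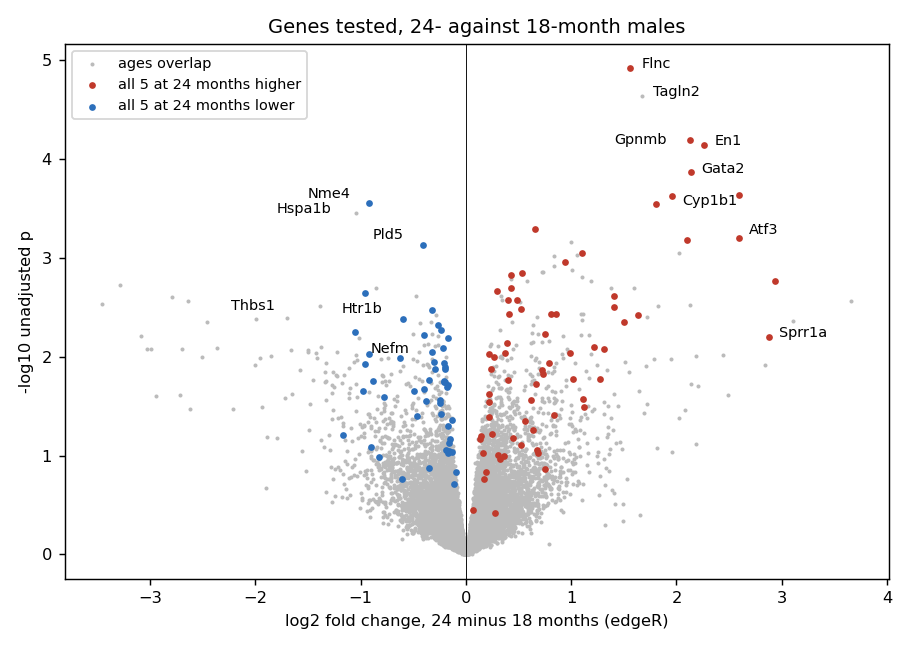
Each point is a gene, with the log2 fold change of 24 minus 18 months on the x axis and the -log10 of the unadjusted edgeR p on the y axis. Red marks the 69 genes whose 5 libraries at 24 months were all higher, blue the 51 whose 5 were all lower, and grey the rest; Flnc and Tagln2 stand highest, and blue genes sit closer to 0 than red ones.

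Library totals ranged from 16201050 to 26908617 counts. The cholinergic label was checked against its markers: 9 of 9 cholinergic motor neuron markers were tested, and their summed level was between 4561 and 5548 CPM (counts scaled to the library total) at 18 months and between 4679 and 5438 at 24 months. Slc18a3, the vesicular acetylcholine transporter, lay between 238 and 947 CPM at 18 months and between 560 and 908 at 24 months. Chat itself was low and uneven, between 8.81 and 73.4 CPM at 18 months and between 21.7 and 91.8 at 24 months. Glial transcripts were present too, with Gfap of astrocytes at 41.0 to 119 and 62.2 to 316 CPM and Mbp of oligodendrocytes at 390 to 666 and 376 to 1180.

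Some libraries stood apart by markers of other cells, and the list results that moved most without them are given both ways. Replicates 1 and 3 of 18 months held 187 and 226 CPM of the 12 bone and cartilage markers, against 59.4 to 81.9 in the other 8 libraries. Those same libraries held 640 and 800 CPM of the 11 meningeal fibroblast markers, against 40.2 to 148 in the others. The 15 microglial markers summed to 256 in replicate 2 of 18 months and to 473 in replicate 1 of 24 months, and to 55.8 to 84.4 elsewhere. Replicate 1 of 24 months was also highest in oligodendrocyte markers (2800, against 859 to 1520 elsewhere) and in skeletal muscle markers (66.3, against 2.60 to 29.0). Replicate 4 of 18 months was highest in astrocyte markers, at 2280 CPM. No member of these lists was at 0 in all 10 libraries.

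**Figure D2:**
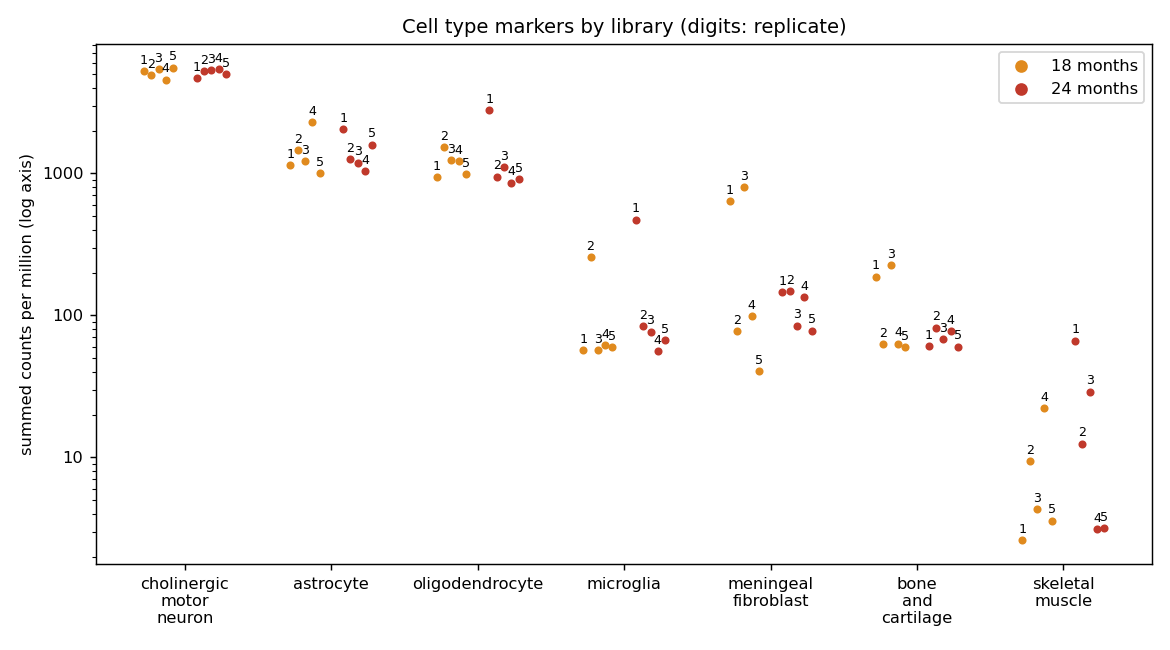
Summed CPM of each marker list on a log axis, for each library of 18 months (orange) and 24 months (red), with the replicate number above the point. The cholinergic motor neuron sums overlap fully between the ages, while 18-month replicates 1 and 3 stand out in meningeal fibroblast and bone markers, and 18-month replicate 2 and 24-month replicate 1 in microglial markers.

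The gene nearest the threshold was Flnc, which encodes filamin C, an actin cross-linker best known from striated muscle (chromosome 6, 29433256-29461883, GRCm38). At 18 months its normalized counts were 26.5, 38.4, 31.8, 43.9 and 42.3, and at 24 months they were 101, 100, 70.4, 176 and 99.5. Every 24-month library was above every 18-month library, and above all 12 younger male libraries (the highest at 43.9). The mean was 109 ± 39.2 at 24 months and 36.6 ± 7.31 at 18 months (SD, n = 5 each). The log2 difference was 1.56 (SE 0.29, adjusted p = 0.200 in edgeR, 0.00271 in DESeq2). Skeletal muscle markers summed to 3.12 and 3.18 CPM in 24-month replicates 4 and 5, where Flnc was 176 and 99.5, and to 66.3 in replicate 1, where it was 101. Myh4, a fast muscle myosin, was at 287, 51.3, 94.1, 0 and 0.995 in the 24-month libraries, and the part of muscle RNA in the Flnc values was not tested.

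Tagln2, the gene of the actin-binding protein transgelin 2 (chromosome 1, 172500047-172507380), had a different course over life. Its normalized counts at 18 months were 178, 132, 368, 122 and 150, and at 24 months 465, 724, 180, 1110 and 550. The groups overlapped through 1 library of each age, replicate 3 in both cases. The log2 fold change was 1.68 (SE 0.33, adjusted p = 0.200 in edgeR, 0.00271 in DESeq2), and the edgeR adjusted p was 0.0179 without 18-month replicate 3 and 0.00651 without 24-month replicate 3. At 3 months its mean was 884 and at 12 months 527, so that the level was lowest at 18 months.

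To test whether a gene's total change after 18 months differed from that before, the change from 18 to 24 months was set against the change from 3 to 18 months in the same edgeR model. The 2 intervals are of unequal length and the changes were not scaled per month. A gene that changed at a steady rate would therefore also show a difference. The 18-month libraries enter both changes, with opposite signs. An unadjusted p under 0.05 was reached by 3.6% of genes, and Tagln2 alone passed the adjusted one (0.00572%), with a difference in log2 fold change of 3.90 (SE 0.63, adjusted p = 0.0186), made up of a 3-to-18-month value of -2.23 (SE 0.36) and the 18-to-24-month value of 1.68. The adjusted p for Tagln2 was 0.077 without 3-month replicate 3 and 0.106 without 18-month replicate 1. DESeq2 called 16 genes (0.0915%), 3 of them with a positive difference (Tagln2, Sfrp1 and Gm12345) and 13 with a negative one. Among the 13 were the bone and connective tissue genes Col1a1, Col1a2, Col2a1, Ibsp, Ctsk, Acp5 and Phex, and bone markers were highest in 18-month replicates 1 and 3.

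**Figure D3:**
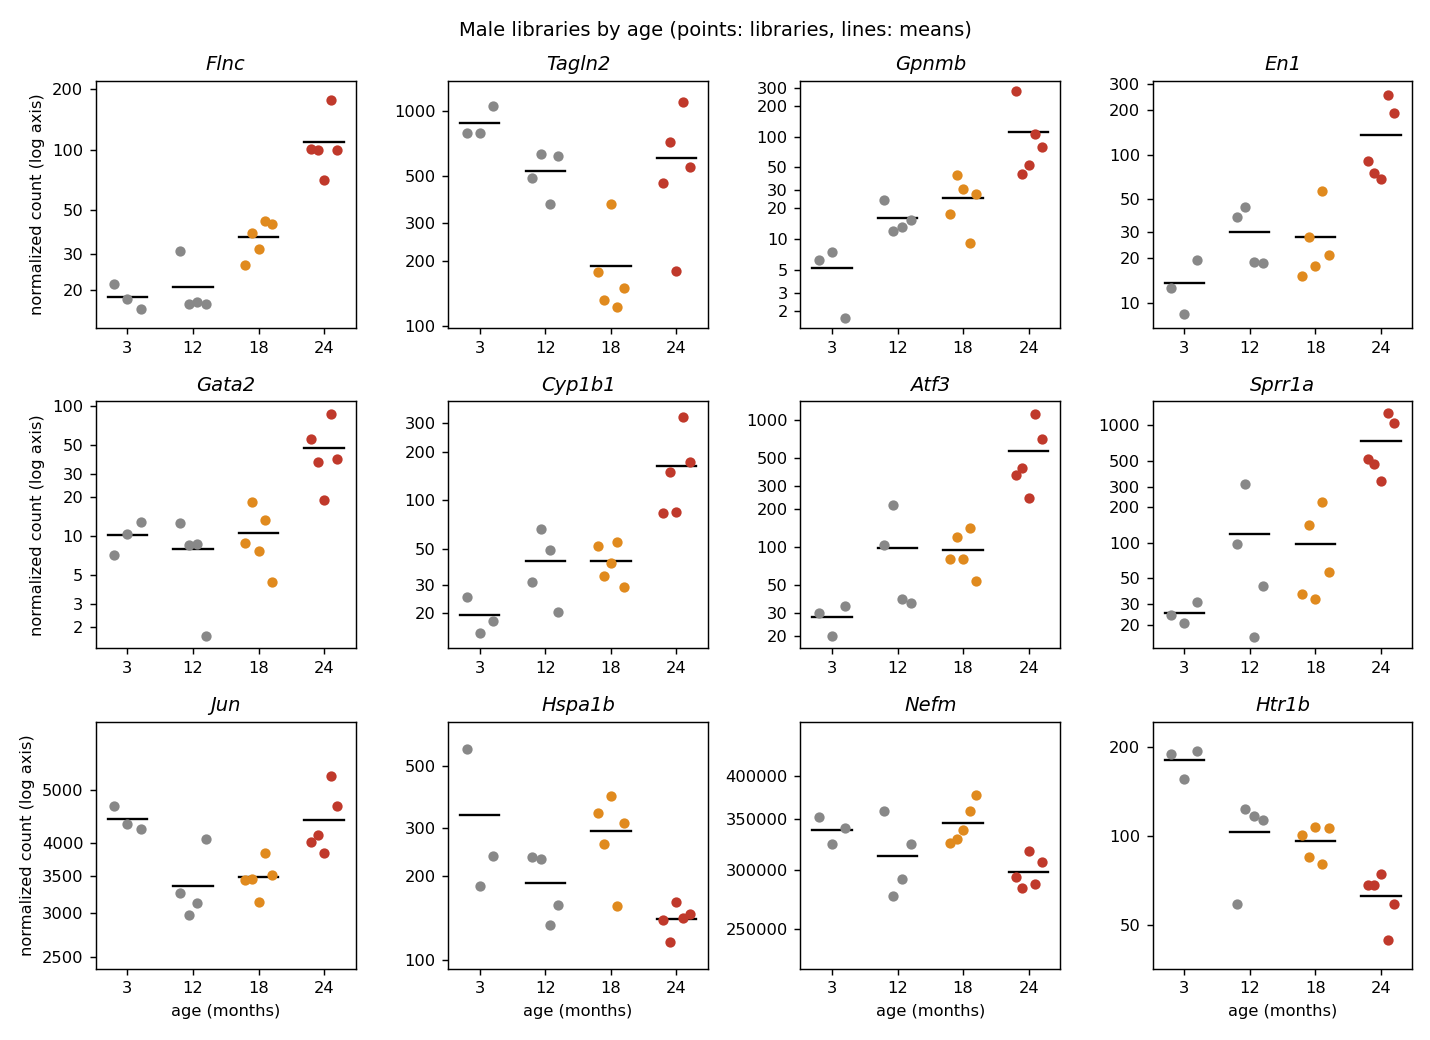
Normalized counts of 12 genes in male libraries of 3, 12, 18 and 24 months, each on its own log axis, with a point per library and a line at the group mean. Flnc, Gpnmb, En1, Gata2, Cyp1b1, Atf3 and Sprr1a show all 5 red points above every younger point, Tagln2 is lowest at 18 months, and Nefm and Htr1b show all 5 red points below the 18-month points.

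The other genes with an adjusted p under 0.05 in DESeq2 were Gpnmb, En1 and Gata2. Gpnmb, a transmembrane glycoprotein of lysosomes that is known from lipid-laden phagocytes and melanocytes (chromosome 6, 49036546-49070929), had normalized counts of 17.7, 41.9, 30.5, 9.18 and 27.3 at 18 months and 278, 43.4, 52.2, 106 and 79.6 at 24 months. The groups did not overlap, though replicate 2 of each age lay close together, and the highest library was the one with the most microglial markers. The log2 fold change was 2.13 (SE 0.45, adjusted p = 0.318 in edgeR, 0.0131 in DESeq2). In 24-month replicate 4, where Gpnmb was 106, the microglial markers summed to 55.8 CPM, the lowest of the 10 libraries. The part of microglial RNA in the Gpnmb values was not tested.

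En1 encodes the homeodomain factor engrailed 1, which marks a class of inhibitory spinal interneurons (chromosome 1, 120602418-120607992). Its normalized counts were 15.2, 27.9, 17.8, 57.1 and 21.2 at 18 months and 90.5, 75.0, 68.8, 252 and 191 at 24 months. Replicates 4 and 5 of 24 months were well above the other three, and no library overlapped. The log2 fold change was 2.26 (SE 0.49, adjusted p = 0.318 in edgeR, 0.0131 in DESeq2). The 8 markers of GABAergic and glycinergic interneurons, En1 included, summed to 178 to 347 CPM at 18 months and 273 to 437 at 24 months, and En1 was the only one of the 8 with an unadjusted p under 0.05. In 24-month replicate 4, with the highest En1, the markers summed to 273 CPM, the lowest of its age. The part of interneuron RNA in the En1 values was not tested.

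Gata2, a zinc-finger transcription factor (chromosome 6, 88193891-88207032), had normalized counts of 8.84, 18.3, 7.63, 13.3 and 4.41 at 18 months and 55.4, 36.8, 19.0, 86.5 and 38.8 at 24 months. The gap between the groups was narrow, from 18.3 to 19.0. Its log2 fold change was 2.14 (SE 0.48, adjusted p = 0.469 in edgeR, 0.0423 in DESeq2), and the level at 18 months was much like that at 3 months (means of 10.5 and 10.1).

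Genes that set 24-month males apart from every younger male were counted next, with the 3- and 12-month males beside those of 18 months. All 5 libraries of 24 months lay above all 12 younger male libraries for 19 genes (0.109% of genes tested) and below them for 3 genes (0.0172%). The 19 included the developmental regulators En1, Gata2 and Vax2, the injury-associated genes Atf3, Sprr1a and Gpr151, the actin cross-linker Flnc, the cytochrome P450 gene Cyp1b1, the protease-activated receptor gene F2rl1, the insulin receptor gene Insr, the ligand gene Wnt7a, the intermediate filament gene Nes and the Ras exchange factor gene Rasgrf2. The rest were Gpnmb, Anxa10, Fam129b, Arih2, Slfn9 and Asb14. Replicate 4 had the highest of the 24-month values for 14 of the 19 genes, replicate 5 for 3 and replicate 1 for 2. The 3 genes below every younger library were Cdh6, Pigc and Fbxw10.

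The size of the change differed widely among the 19. F2rl1 had a mean of 24.9 normalized counts at 24 months and 3.04 at 18 months (a log2 difference of 2.94, SE 0.85). Vax2, a homeobox gene of the embryonic eye, had normalized counts of 10.1, 0.873, 3.82, 17.3 and 4.41 at 18 months and 25.9, 40.8, 18.2, 84.0 and 53.7 at 24 months (a log2 difference of 2.60, SE 0.61). It was almost absent from young males, at 0 to 0.941 normalized counts at 3 months. At the other end, Arih2, a ubiquitin ligase gene, had means of 890 and 753 (a log2 difference of 0.24, SE 0.09), and Insr means of 499 and 415 (a log2 difference of 0.27, SE 0.10). Rasgrf2 was among the more abundant, at 1620 to 2310 normalized counts at 24 months against at most 1550 in younger males.

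Among the pathway lists, axon regeneration held the highest share of members that were higher with an unadjusted p under 0.05. Of 35 genes listed, 32 were tested, 26 were higher at 24 months and 6 lower, and the median log2 fold change was 0.34 beside -0.01 over all genes tested, of which 48.5% were higher. None had an adjusted p under 0.05, while 10 were higher and 1 was lower with an unadjusted p under 0.05, against 1.87% and 1.4% of all genes. The list contains genes that the study names on these samples and is not independent evidence of the direction. Leaving out each library in turn, 6 to 14 members were higher with an unadjusted p under 0.05 and the median stayed between 0.21 and 0.47. The number was lowest, at 6, without 24-month replicate 4 or replicate 5. Without 18-month replicates 1 and 3 together, that number was 3, 23 of 32 members were higher and the median was 0.23.

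Among the transcription factors of the list, Atf3 had the lowest p (chromosome 1, 191170296-191218039). Its normalized counts were 79.6, 119, 80.1, 140 and 53.8 at 18 months and 370, 418, 242, 1120 and 707 at 24 months. The ages did not overlap, and replicates 4 and 5 of 24 months were the highest. The mean was 571 ± 350 at 24 months and 94.4 ± 34.4 at 18 months (SD, n = 5 each). The log2 difference was 2.59 (SE 0.67, adjusted p = 0.854 in edgeR). At 3 months the 3 libraries lay between 19.8 and 34.0, and the change from 3 to 18 months was 1.75 on the log2 scale (SE 0.85).

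Jun, the partner of ATF3 in AP-1 dimers, was abundant at both ages. Its normalized counts were 3430, 3450, 3130, 3850 and 3510 at 18 months and 4030, 4150, 3850, 5300 and 4680 at 24 months, so that the groups met at 3850. The log2 fold change was 0.34 (SE 0.10), and 3-month males, at 4244 to 4679, had levels within the range of 24 months. The other transcription factors of the list had log2 fold changes of 0.13 for Stat3, 0.34 for Sox11, -0.002 for Klf6 and -0.04 for Smad1, all with overlapping groups.

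Of the effector genes, Sprr1a, a small proline-rich protein that is induced in injured neurons (chromosome 3, 92483952-92485895), showed the widest separation. Its normalized counts were 36.6, 141, 33.1, 224 and 56.4 at 18 months and 520, 466, 334, 1270 and 1050 at 24 months. All 24-month libraries were higher, yet the spread within 18 months was wide, with replicate 4 the highest of its age. The log2 fold change was 2.87 (SE 0.98, adjusted p = 1.00 in edgeR). Gap43, the growth-associated protein of growth cones, had normalized counts of 2350, 2880, 1150, 3350 and 2130 at 18 months and 2990, 3680, 2740, 3610 and 4520 at 24 months (a log2 difference of 0.56, SE 0.23). Tubb2b, a neuronal beta tubulin, had 693, 825, 485, 1170 and 877 at 18 months and 1220, 1190, 977, 1520 and 1320 at 24 months (a log2 difference of 0.62, SE 0.21), with 1 library of 18 months inside the range of 24 months.

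The neuropeptides of the list were higher at 24 months as well, by differing amounts. Npy, neuropeptide Y, had normalized counts of 22.7, 67.2, 40.7, 132 and 30.0 at 18 months and 190, 118, 142, 487 and 669 at 24 months (a log2 difference of 2.44, SE 0.88). Gal, galanin, had 196, 245, 111, 619 and 231 at 18 months and 524, 456, 393, 655 and 1090 at 24 months (a log2 difference of 1.15, SE 0.54). In both genes replicate 4 of 18 months was the highest of its age and reached into the range of 24 months. Adcyap1, Vip, Crh and Nts had log2 fold changes of 0.66, 0.59, 1.48 and 0.17, none of them with an unadjusted p under 0.05.

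Across the 32 members tested, the highest of the 10 libraries was 24-month replicate 4 for 13 genes and 24-month replicate 5 for 10 genes. Replicate 4 of 18 months was highest for 6 genes, replicate 3 of 18 months for 2 and replicate 1 of 24 months for 1. The list was thus led by 2 of the 5 old libraries. Anxa1, annexin A1, was the one member lower at 24 months with an unadjusted p under 0.05, at 213, 10.5, 223, 25.5 and 0 normalized counts at 18 months and 22.2, 27.6, 9.49, 29.7 and 12.9 at 24 months. Its high values lay in 18-month replicates 1 and 3 alone, and without them its log2 fold change was 0.76 in place of -2.21.

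**Figure D4:**
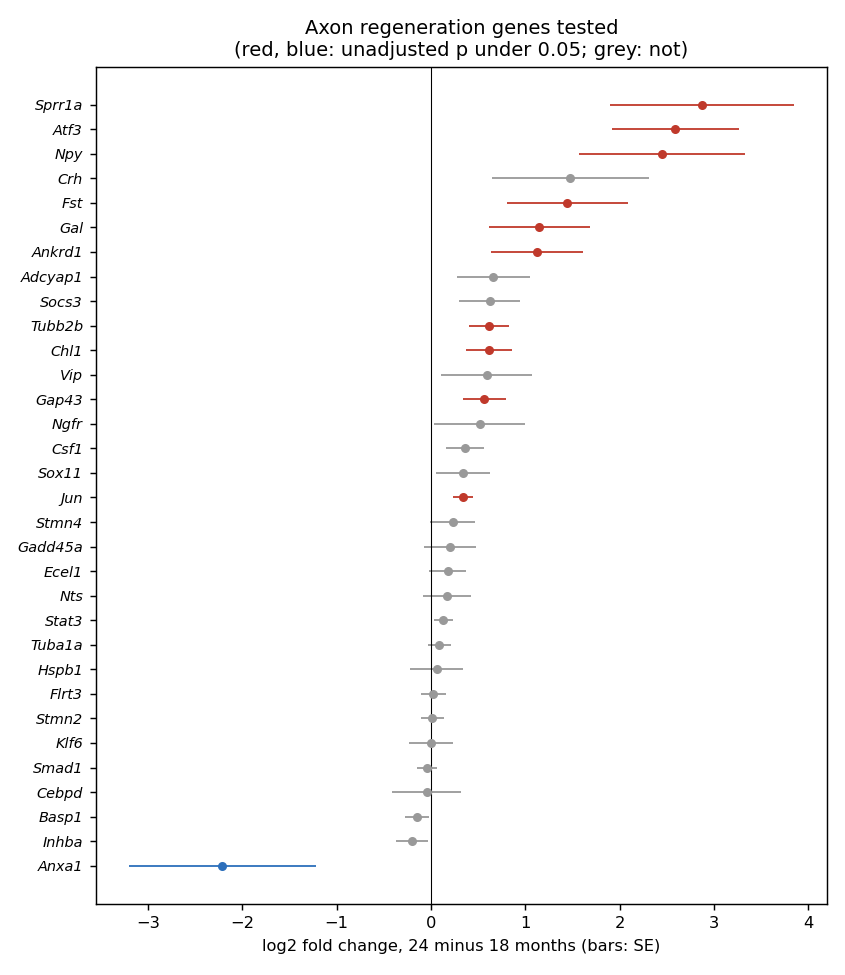
Log2 fold change of 24 minus 18 months for the 32 tested members of the axon regeneration list, with the standard error as bars. Points in red (10 genes, higher) and blue (Anxa1, lower) had an unadjusted p under 0.05 and grey ones did not; Sprr1a, Atf3 and Npy lie farthest to the right.

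Because JUN and ATF3 belong to the factors that bind the AP-1 motif TGANTCA, the 250 bases before the RefSeq start (GRCm38.p6) were searched for it on both strands. The motif is its own reverse complement apart from the middle base, so 1 search covers both. Of 32851 windows in the RefSeq table, 6.75% held at least 1 match, and of the 12177 tested genes with a window, 695 did (5.71%). Among the 32 axon regeneration genes, 25 had a window and 2 held a match, Sprr1a and Nts. Among the 19 genes above every younger male, 14 had a window and 3 held a match, Sprr1a, En1 and Anxa10. These counts describe the letters of the windows and nothing more. The single window of Atf3 lies inside its gene model (chromosome 1, 191170296-191218039, minus strand). Bases before the start of that model were not searched. The windows of Sprr1a (chr3:92485882-92486131, minus strand, 2 matches 146 and 116 bases before the start), En1 (chr1:120602237-120602486, plus strand, 1 match 163 bases before the start) and Atf3 (chr1:191183334-191183583, minus strand, no match) are shown as those of an injury effector with matches, a developmental regulator with a match and an AP-1 factor gene without one, with the motif in capitals.
Sprr1a: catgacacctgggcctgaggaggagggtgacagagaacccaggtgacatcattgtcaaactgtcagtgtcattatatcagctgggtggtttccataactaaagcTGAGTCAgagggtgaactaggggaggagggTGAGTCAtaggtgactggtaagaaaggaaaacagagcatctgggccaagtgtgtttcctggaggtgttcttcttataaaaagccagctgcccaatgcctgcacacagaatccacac
En1: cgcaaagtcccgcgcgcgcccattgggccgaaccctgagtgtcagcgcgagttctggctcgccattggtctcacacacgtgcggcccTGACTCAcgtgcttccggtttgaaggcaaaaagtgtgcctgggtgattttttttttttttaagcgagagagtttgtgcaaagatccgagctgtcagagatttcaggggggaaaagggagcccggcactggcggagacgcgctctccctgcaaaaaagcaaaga
Atf3: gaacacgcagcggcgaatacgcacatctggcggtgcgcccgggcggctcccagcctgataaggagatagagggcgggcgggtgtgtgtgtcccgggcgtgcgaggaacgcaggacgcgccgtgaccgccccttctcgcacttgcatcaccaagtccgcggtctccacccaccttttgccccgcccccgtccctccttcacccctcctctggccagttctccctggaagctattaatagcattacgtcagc

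Of the other leading genes that were higher without overlap, Cyp1b1, a cytochrome P450 of steroid and xenobiotic metabolism (chromosome 17, 79701537-79715061), had normalized counts of 51.8, 34.1, 40.7, 55.1 and 29.1 at 18 months and 83.1, 150, 84.6, 328 and 173 at 24 months (a log2 difference of 1.96, SE 0.46). Carhsp1, an RNA-binding cold shock domain protein, had 256, 314, 190, 284 and 190 at 18 months and 526, 400, 318, 625 and 505 at 24 months (a log2 difference of 0.94, SE 0.26). Plscr4, a phospholipid scramblase gene, had 77.6 to 99.8 at 18 months and 115 to 184 at 24 months, but 3-month males, at 112 to 135, overlapped the oldest group. Casp12, a caspase linked to the endoplasmic reticulum, had a log2 fold change of 0.53 (SE 0.15), and its 24-month libraries (93.5 to 139) likewise did not stand above those of 3 months (85.8 to 95.9) throughout.

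Genes wholly lower at 24 months were fewer, and among abundant genes their shifts were small. The lowest p of them was that of Nme4, a nucleoside diphosphate kinase of mitochondria, at 32.8, 40.2, 45.8, 33.7 and 40.6 normalized counts at 18 months and 12.0, 27.6, 19.8, 21.0 and 21.9 at 24 months (a log2 difference of -0.92, SE 0.22). Nefm, the medium neurofilament chain (chromosome 14, 68082590-68124846), had normalized counts of 325000, 329000, 339000, 359000 and 377000 at 18 months and 293000, 284000, 318000, 287000 and 307000 at 24 months. Each 24-month library was below each of 18 months (a log2 difference of -0.22, SE 0.08). The 12-month libraries ranged from 277400 to 358600, overlapping both ages, and the exons of Nefm overlap a transcript of its neighbour Nefl on the opposite strand. Nefh, the heavy chain, had means of 137600 at 24 months and 154900 at 18 months with overlapping groups (a log2 difference of -0.17, SE 0.08).

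Htr1b, the 1B serotonin receptor (chromosome 9, 81628291-81633828), had normalized counts of 101, 84.7, 107, 80.6 and 106 at 18 months and 68.4, 68.4, 74.4, 44.5 and 58.7 at 24 months (a log2 difference of -0.60, SE 0.19). It was at 156 to 194 in 3-month males, and its change from 3 to 18 months was -0.91 on the log2 scale (SE 0.21). Pld5, a member of the phospholipase D family, had 537 to 796 normalized counts at 18 months and 405 to 499 at 24 months (a log2 difference of -0.41, SE 0.11). Cdh6, an adhesion molecule of the cadherin family, had 2860, 2810, 3220, 3020 and 2870 at 18 months and 2630, 2570, 2650, 2040 and 2420 at 24 months (a log2 difference of -0.26, SE 0.09), and was below every younger male library. The other leading genes in this direction were Caprin2, Samd1, Gm15663 and Paqr4, with log2 fold changes from -0.40 to -0.17.

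Identity genes of cholinergic and motor neurons were split evenly, with 17 of 34 higher, 17 lower and a median log2 fold change of -0.02. With an unadjusted p under 0.05, 4 were lower (Nefm, Chodl, Mmp9 and Nefh) and none was higher. The share lower was 11.8%, against 1.4% of all genes. Chodl, chondrolectin, and Mmp9, a metalloproteinase, are both markers of fast motor neurons. Chodl had normalized counts of 12000, 12000, 16600, 12000 and 13100 at 18 months and 11900, 11700, 11600, 6930 and 9580 at 24 months, so that 3 libraries of each age lay within a narrow band near 12000 and the difference rested on the others. Mmp9 had 2160, 1810, 2990, 886 and 2870 at 18 months and 1600, 1420, 2060, 1410 and 1020 at 24 months, with overlapping groups.

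**Figure D5:**
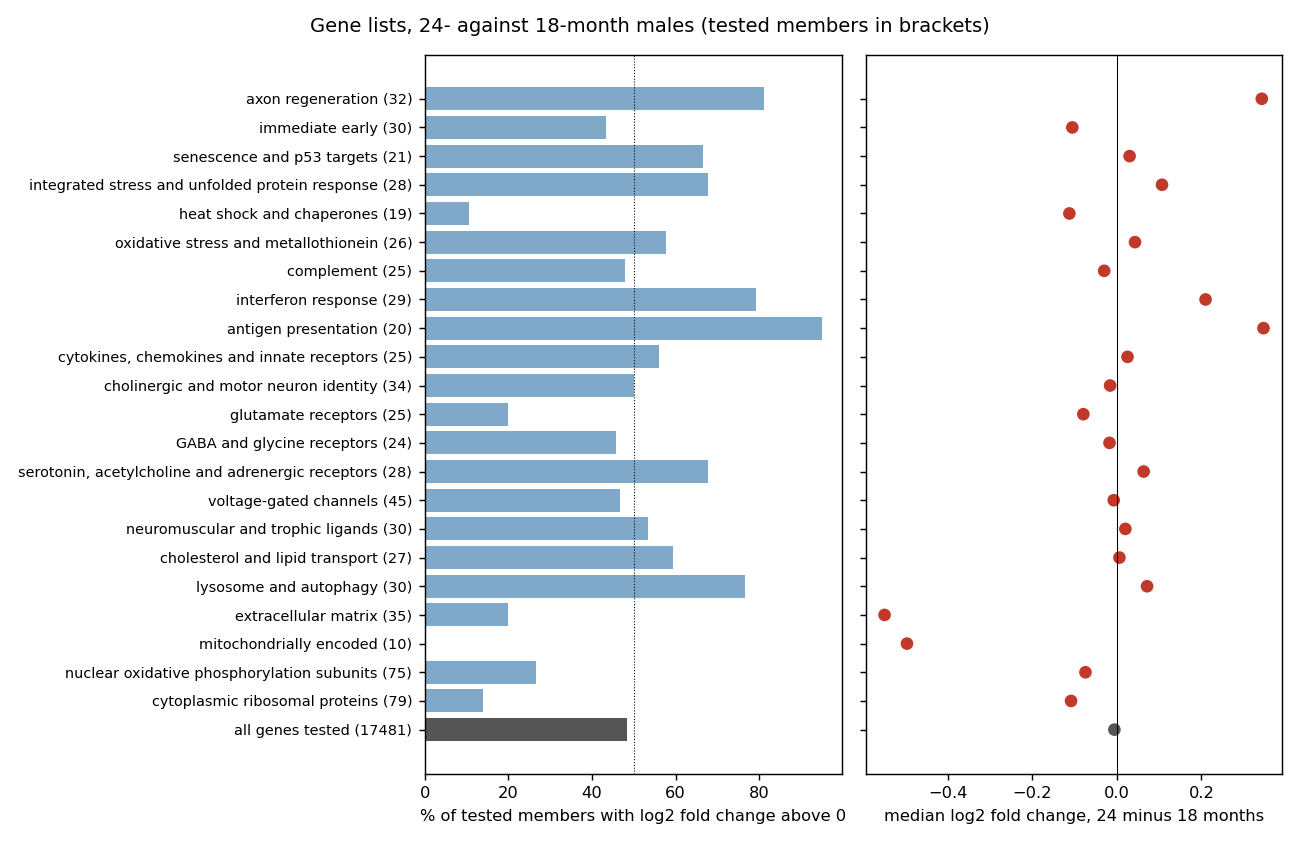
For each pathway list, the percent of tested members with a log2 fold change above 0 (left, bars from 0, with a dotted line at 50) and the median log2 fold change (right), with the number of tested members in brackets and all genes tested in dark grey. Axon regeneration and antigen presentation have the highest medians, at 0.34 and 0.35, and the extracellular matrix and the mitochondrially encoded genes the lowest, at -0.55 and -0.50.

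Of the antigen presentation genes, which serve major histocompatibility class I and II, 19 of 20 were higher in the older mice (median 0.35), against 48.5% of all genes. An unadjusted p under 0.05 was reached by 2 of the higher members (10%, against 1.87% of all genes). H2-K1, a class I heavy chain, had normalized counts of 693, 484, 664, 340 and 354 at 18 months and 1030, 973, 502, 628 and 600 at 24 months. Nlrc5, the transactivator of class I genes, had 13.9, 8.73, 12.7, 8.16 and 13.2 at 18 months and 20.3, 17.1, 14.2, 47.0 and 12.9 at 24 months (a log2 difference of 0.96, SE 0.34). Tap1, which carries peptides to class I molecules, had a log2 fold change of 0.50 (SE 0.22) and overlaps Psmb9 on the opposite strand. Replicate 1 of 24 months, with the most microglial markers, was the highest library for H2-K1, and without it 16 of 20 members were higher and the median was 0.15; the part of microglia in the rest was not tested. Without 18-month replicates 1 and 3, 17 of 20 were higher with a median of 0.60.

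Interferon response genes were higher for 23 of 29 members, with a median of 0.21. Of the members, 2 were higher with an unadjusted p under 0.05 (6.9%, against 1.87% of all genes). Oasl2, an oligoadenylate synthetase-like gene, had normalized counts of 69.5, 65.5, 53.4, 33.7 and 81.1 at 18 months and 89.6, 125, 104, 89.0 and 72.6 at 24 months (a log2 difference of 0.66, SE 0.24). Irgm1, an interferon-induced GTPase, had a log2 fold change of 0.41 (SE 0.17). The median without 24-month replicate 1 was 0.10, with 20 of 29 higher.

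Markers of microglia themselves were higher for 14 of 15 genes, with a median of 0.51, a value that turned on single libraries. Tyrobp, an adaptor of TREM2, had normalized counts of 41.7, 97.8, 38.2, 17.3 and 18.5 at 18 months and 274, 44.7, 27.7, 18.5 and 26.9 at 24 months. Outside 24-month replicate 1, the older libraries lay within the range of the younger ones. Without that replicate none of the 15 microglia markers was higher and the median was -0.55. Without 18-month replicate 2 instead, all 15 were higher (6 with an unadjusted p under 0.05) and the median was 1.26. Without both libraries, 9 of 15 were higher and the median was 0.17. C1qa, the complement subunit, followed the same libraries, at 941 in 18-month replicate 2 and 1940 in 24-month replicate 1 against 82.9 to 242 elsewhere. The complement list as a whole had 12 of 25 members higher and a median of -0.03. That complement median was -0.20 (7 higher) without 24-month replicate 1, 0.27 (14 higher) without 18-month replicate 2 and 0.25 (18 higher) without 18-month replicates 1 and 3.

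Senescence and p53 target genes were higher for 14 of 21 members with a median of 0.03. Of them 3, Ccnd1, Cdkn2a and Pmaip1, were higher with an unadjusted p under 0.05 (14.3%, against 1.87% of all genes). With each library left out in turn, that number ran from 0 to 3 and the median from -0.0182 to 0.0589. Cdkn2a, the gene of the inhibitors p16 and p19 (chromosome 4, 89274471-89294653), had normalized counts of 87.1, 153, 102, 455 and 117 at 18 months and 261, 522, 252, 557 and 683 at 24 months (a log2 difference of 1.31, SE 0.57). Replicate 4 of 18 months reached the level of the oldest mice, and the other 4 libraries of its age were below all of 24 months. Its change from 3 to 18 months was 2.76 on the log2 scale (SE 0.78). Ccnd1, cyclin D1, had 904 to 1320 normalized counts at 18 months and 1150 to 2300 at 24 months.

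Heat shock and chaperone genes were lower for 17 of 19 members, with a median of -0.11. The inducible Hsp70 gene Hspa1b had normalized counts of 338, 262, 389, 156 and 312 at 18 months and 139, 116, 161, 141 and 146 at 24 months (a log2 difference of -1.05, SE 0.26, adjusted p = 0.617 in edgeR). One library of 18 months, replicate 4, lay among the 24-month values, which were close together. Hspa1a, its near-identical neighbour, had a log2 fold change of -0.45 (SE 0.18), and reads shared by the pair make the split between them uncertain. Hspa1b was between 133 and 234 at 12 months and between 184 and 577 at 3 months. Its mean was lowest at 24 months, at 141, against 189 at 12, 292 at 18 and 333 at 3 months, though the 24- and 12-month ranges overlapped.

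Extracellular matrix genes were lower for 28 of 35 members, with a median of -0.55, while 48.5% of all genes tested were higher. An unadjusted p under 0.05 was reached by 12 of the lower members (34.3%, against 1.4% of all genes). Thbs1, thrombospondin 1, had normalized counts of 236 and 238 in 18-month replicates 1 and 3 and of 8.82 to 18.4 in the rest of that age, and 24.0, 38.1, 19.0, 30.9 and 16.9 at 24 months. Acp5, an osteoclast phosphatase, had 616, 2.62, 689, 3.06 and 0 at 18 months and 10.2, 46.0, 5.54, 84.0 and 12.9 at 24 months. In both genes only 18-month replicates 1 and 3 were high. Without those libraries 27 of the 35 matrix genes were higher and the median was 0.37, and the 11 bone and cartilage markers tested went from 1 higher and a median of -1.66 to 8 higher and a median of 0.79. Col12a1, a fibril-associated collagen, had 146, 65.5, 151, 73.5 and 67.0 at 18 months and 44.3, 60.5, 50.6, 75.4 and 47.8 at 24 months, again with the same libraries highest.

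Genes of the respiratory chain and of ribosomes were mostly lower at 24 months, with no member called. All 10 tested genes of the mitochondrial genome were lower at 24 months, with a median of -0.50 and none with an unadjusted p under 0.05. mt-Nd1 had normalized counts of 6750, 4780, 17800, 7200 and 7750 at 18 months and 6530, 7180, 4860, 5410 and 5530 at 24 months, with overlap and 1 high library. Without 18-month replicates 1 and 3, 2 of the 10 were higher and the median was -0.10. Nuclear-encoded subunits of oxidative phosphorylation were higher for 20 of 75, with a median of -0.07, and cytoplasmic ribosomal proteins for 11 of 79, with a median of -0.11. Both directions hung on 18-month replicate 4: without it 58 of 75 subunits and 58 of 79 ribosomal proteins were higher, with medians of 0.10 and 0.09.

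The lists of neurotransmitter receptor genes and of voltage-gated channel genes had medians near 0. Glutamate receptor genes were higher for 5 of 25 with a median of -0.08, GABA and glycine receptor genes for 11 of 24 with a median of -0.02, and voltage-gated channel genes for 21 of 45 with a median of -0.01. Leaving out each library in turn, 3 to 13 glutamate receptor genes were higher, with medians from -0.115 to 0.0122. The gene with the lowest p among channels was Cacna2d1, a calcium channel subunit, at 711, 789, 569, 953 and 678 normalized counts at 18 months and 709, 1170, 980, 922 and 993 at 24 months. Receptors for serotonin, acetylcholine and adrenaline were higher for 19 of 28 with a median of 0.06. Neuromuscular and trophic ligands were higher for 16 of 30 with a median of 0.02, and among them Wnt7a, a Wnt ligand, had 152, 171, 142, 191 and 175 normalized counts at 18 months and 211, 207, 212, 219 and 243 at 24 months without overlap (a log2 difference of 0.39, SE 0.14).

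Of the remaining lists, integrated stress and unfolded protein response genes were higher for 19 of 28 (median 0.11), lysosome and autophagy genes for 23 of 30 (median 0.07), oxidative stress and metallothionein genes for 15 of 26 (median 0.04) and cholesterol and lipid transport genes for 16 of 27 (median 0.01). Ctsl, the lysosomal protease cathepsin L, had normalized counts of 1930, 2320, 1870, 1950 and 1920 at 18 months and 2810, 2590, 2260, 2220 and 2710 at 24 months (a log2 difference of 0.33, SE 0.10). Abca1, the cholesterol exporter, had 302, 248, 332, 382 and 263 at 18 months and 361, 471, 358, 545 and 440 at 24 months (a log2 difference of 0.51, SE 0.16). In each gene 1 library of 18 months fell inside the range of 24 months. Immediate early genes were higher for 13 of 30 (median -0.10) and cytokine, chemokine and innate receptor genes for 14 of 25 (median 0.03). For the latter list it was 5 of 25 (median -0.21) without 24-month replicate 1 and 20 of 25 (median 0.46) without 18-month replicates 1 and 3.

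The genes that the study names in males, which were chosen on these samples, were higher for 12 of 14 with a median log2 fold change of 0.75. With an unadjusted p under 0.05, 5 were higher and 1 lower (35.7% and 7.14%, against 1.87% and 1.4% of all genes). Without 24-month replicate 1, 10 of 14 were higher and the median was 0.30. Besides those described above, Serpinb1a, a protease inhibitor gene, had normalized counts of 96.0, 213, 96.7, 175 and 96.1 at 18 months and 340, 230, 170, 311 and 314 at 24 months (a log2 difference of 1.00, SE 0.46). Sfrp1, a secreted Wnt modulator, had 241, 235, 150, 243 and 211 at 18 months and 257, 339, 223, 292 and 246 at 24 months (a log2 difference of 0.33, SE 0.15), while its 3-month libraries were far higher, at 424 to 434. Ppp1r1c, a phosphatase inhibitor gene, had a log2 fold change of -0.29 (SE 0.19) and Vim, vimentin, one of 0.38 (SE 0.43), both with overlapping groups.

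Among the marker lists of other cells, astrocyte markers were higher for 10 of 11 (median 0.34), oligodendrocyte markers for 8 of 10 (median 0.21), oligodendrocyte precursor markers for 5 of 7 (median 0.19), Schwann cell markers for 5 of 8 (median 0.20), endothelial markers for 8 of 11 (median 0.51) and skeletal muscle markers for 9 of 10 (median 1.22). Without 24-month replicate 1, 2 of 11 astrocyte (median -0.13), none of 10 oligodendrocyte (median -0.43) and 2 of 7 oligodendrocyte precursor markers (median -0.15) were higher, and the medians of the Schwann cell, endothelium and skeletal muscle lists were -0.005, 0.23 and 0.32. The skeletal muscle median was 2.29 without 18-month replicate 4 and 0.75 without 18-month replicates 1 and 3. Pericyte, ependymal, T cell, B and plasma cell and erythroid markers were higher for 4 of 8, 1 of 4, 2 of 4, 3 of 5 and 5 of 7, neutrophil markers for none of 8, and meningeal fibroblast markers for 4 of 10. Without 18-month replicates 1 and 3 these became 5 of 8 neutrophil markers (median 0.36 in place of -0.96), 10 of 10 meningeal fibroblast markers (0.29 in place of -0.06) and 7 of 7 erythroid cell markers (0.74 in place of 0.04). Dorsal root ganglion and glutamatergic interneuron markers were higher for 6 of 8 and 4 of 8, and cholinergic motor neuron markers for 6 of 9 with a median of 0.02. GABAergic and glycinergic interneuron markers, En1 included, were higher for 8 of 8 with a median of 0.35. Leaving out each library in turn, 7 to 8 of them were higher and the median stayed between 0.25 and 0.44.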

How the data were processed

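RNA bound to HA-tagged ribosomes was sequenced from spinal cords of Chat-Cre;RiboTag mice. The deposited values are raw counts per gene, 1 file per library, which the authors made with HTSeq from HISAT2 alignments to GRCm38 after trimming adaptors and low-quality bases (ea-utils, Btrim). Tool versions and the strand setting are not given in the sources used here, so 24 of the 102 named genes, whose exons overlap another gene, are uncertain. Symbols and coordinates came from GENCODE M21 (GRCm38), with a symbol for 54165 of 54232 identifiers.

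Counts were fitted in R 4.3.3 with edgeR 4.0.16 (TMM, quasi-likelihood test, two-sided, Benjamini-Hochberg adjustment) in 1 model of 7 groups and 31 libraries, leaving out the single 24-month female. The test covered the 17481 genes whose mean count reached 5. DESeq2 1.42.0 (Wald test), limma 3.58.1 (voom with sample quality weights) and the further settings named in the closing section were alternatives. Normalized counts were scaled to 21581000. Scripts were tested on simulated data.

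The members and lists were chosen with earlier results of these data known. Named genes were, per direction, the 8 with the smallest p among genes without overlap and a mean count of at least 50, the study's genes and Cdkn2a, and the 3 smallest p of each list. Tagln2, Gata2, Vax2, Gpr151, Nme4, Gap43, Gal, Tubb2b, Chl1, Fst, Ankrd1, Anxa1, Ctsk, Acp5, Ibsp, Col2a1 and Myh4, and the genes outside the range of all younger males, were added once their values had been seen. The results for 2 other genes are not reported.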

Additional observations from a re-analysis of the deposited data

Results flagged for a closer look

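The range of each named gene was searched for a library far from the others of its age, by the gap to its nearest neighbour over the whole range, in 204 groups of 5 libraries (102 genes). The cutoff on that gap would flag about 1 in 20 groups of independent, normally distributed values. These counts were not log-transformed and many of the genes were chosen on the same values, so that rate does not apply here. Libraries of this kind were found in 27 groups. In 24-month replicate 1 they were Gpnmb (278 normalized counts), C1qa (1940), Tyrobp (274), Lpl (366), Grn (1070), Cxcl16 (96.1) and Ifit2 (169), in the library with the most microglial markers. In 24-month replicate 4 they were Flnc (176), Ccnd1 (2300), Fgf21 (145) and Nlrc5 (47.0). In 24-month replicate 2 Ppp1r1c was at 133, and in 24-month replicate 5 Rplp0 was at 2800, the lowest of its age.

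In 18-month replicate 4 they were Pld5 (796), Cdkn2a (455), Gal (619), Fst (24.5), Ndufb10 (10200), Ndufa5 (9710) and Ndufb3 (11000), all the highest of their age, and Hspa1a (262), the lowest. In 18-month replicate 2 they were C1qa (941), Ctsl (2320) and Rplp0 (3790). In 18-month replicate 3 they were Chodl (16600), mt-Nd1 (17800) and Tagln2 (368).

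The course of Tagln2 differed between the 2 intervals of life, with a difference of 3.90 on the log2 scale between its change from 18 to 24 and its change from 3 to 18 months (edgeR adjusted p = 0.0186). That edgeR adjusted p was 0.077 without 3-month replicate 3 and 0.106 without 18-month replicate 1.

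The single 24-month female, which entered no test, had normalized counts above all 5 females of 18 months for 3 of the 8 genes that led upward in males: Flnc at 83.5 (at most 66.4 at 18 months), En1 at 132 (at most 77.2) and Atf3 at 381 (at most 316). For the other 5 it lay within or below the range of those females. The paper's list of replicates kept for analysis holds no 24-month female, and its authors removed failed samples by eye. Tagln2, which is not among the 8, was at 157.8 in the 24-month female and at 154.2 to 408.9 in the females of 18 months.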

How the results depend on the processing

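The count of genes changed between 18 and 24 months was 0 in edgeR's test with 571 genes at an unadjusted p under 0.05. It was 5 with the DESeq2 Wald test (578 genes at an unadjusted p under 0.05), 1 with limma voom and quality weights (1352 genes) and 52 among the libraries in the lower range of totals (11 higher, 41 lower), where 2 libraries of each age remained. The 18-month libraries of that range were replicates 1 and 3, those high in bone and meningeal markers, and 9 of 35 extracellular matrix and 6 of 11 bone and cartilage genes were called there. Leaving out each library in turn gave 0 to 1, the 1 being Tagln2 without 18-month replicate 3 or 24-month replicate 3. In those fits 462 to 910 genes had an unadjusted p under 0.05. The number was highest without 18-month replicate 4 (910, of which 503 were higher) and lowest without 24-month replicate 4. The count of genes changed depended little on other settings. That count was 0 with DESeq2 size factors, robust dispersion, both filters on low counts, only the 2 ages, a term for the total, transcript length offsets and the higher range of totals. With only the 2 ages in the fit, the smallest edgeR adjusted p was 0.552, for Atf3.

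The replicate block also gave 0 called genes (271 at an unadjusted p under 0.05). Same-numbered libraries of the 2 ages had deviations correlated by -0.184, -0.0941, 0.189, -0.583 and -0.501, so the numbers did not pair them.

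The count of genes whose change differed before and after 18 months was 1 in edgeR and 16 in DESeq2, and leaving out each library in turn gave 0 to 18. It was 0 without 3-month replicate 3 or 18-month replicate 1, and 16, 2, 18 and 14 without 18-month replicates 2, 3, 4 and 5.

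Of 2421 alternative log2 fold changes for the 102 named genes, 2397 kept their direction and 24 reversed, and 24 passed an adjusted p of 0.05, 16 of them in the lower range of totals. In the higher range of totals the reversed values were Thbs1 0.521, Tnc 0.137, Anxa1 0.297, Ctsk 0.609, Acp5 2.26 and Ibsp 0.384. Without 18-month replicates 1 and 3, a setting chosen after seeing the data, they were Thbs1 0.897, Tnc 0.637, Anxa1 0.763, Ctsk 1.57, Acp5 3.97, Ibsp 0.984 and Col2a1 0.787. In the lower range of totals they were Tyrobp -0.342, Vim -0.452, Ndufa5 0.0182 and Ndufb3 0.0754, and with limma voom Ndufa5 0.0532 and Ndufb3 0.0987. Leaving out each library gave -0.497 to 2.14 for C1qa and -0.548 to 1.47 for Tyrobp, both reversed without 24-month replicate 1. It gave -0.384 to 0.00556 for Ndufb10, -0.472 to 0.188 for Ndufa5 and -0.463 to 0.225 for Ndufb3, all reversed without 18-month replicate 4. Of 552 list medians, 10 moved by more than the spread between libraries: complement (0.288 in the higher range of totals, 0.265 without 18-month replicate 2 and 0.245 without 18-month replicates 1 and 3), cytokines, chemokines and innate receptors (0.609 and 0.459 in the first and last of these), extracellular matrix (0.366 without 18-month replicates 1 and 3), the study's genes (0.295 without 24-month replicate 1), cholinergic and motor neuron identity (-0.106 without 18-month replicate 4), and, in the lower range of totals, neuromuscular and trophic ligands (-0.111) and lysosome and autophagy (-0.00639).

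Library totals fell on both sides of a gap from 17995911 to 22365778 counts, with 2 libraries of each age below it. Leaving out 18-month replicate 2 and 24-month replicate 1 together, also chosen after seeing the data, gave 0 called genes and 586 at an unadjusted p under 0.05.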
